A study of Mus musculus with 8 samples.

Results

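Voltage-gated calcium channels open when a neuron depolarizes and let calcium into the cell. The pore is formed by an alpha-1 subunit, encoded by a *Cacna1* gene, which sets the type of current, and an alpha-2-delta subunit, encoded by a *Cacna2d* gene, helps to bring the channel to the surface membrane and to presynaptic sites. In cortical neurons, P/Q-type and N-type channels trigger transmitter release, L-type channels couple activity to gene expression, R-type channels act in dendrites and terminals, and T-type channels open near the resting potential. These genes are examined here in the primary motor cortex (M1) after knockdown of *Fezf2*, a transcription factor of deep-layer projection neurons.

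The 10 genes were chosen by name: the alpha-1 genes *Cacna1a* (P/Q-type), *Cacna1b* (N-type), *Cacna1c* and *Cacna1d* (L-type), *Cacna1e* (R-type), *Cacna1g* and *Cacna1h* (T-type), and the alpha-2-delta genes *Cacna2d1*, *Cacna2d2* and *Cacna2d3*. All 10 were found among the 38031 genes with counts, and all 10 were among the 9959 genes that passed the expression filter (more than 8 CPM, counts scaled to library size, in at least 4 libraries). Each gene was represented by the Ensembl transcript with the lowest number, and all 8 libraries were used.

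The libraries came from wild-type male Swiss Webster mice that had received lentivirus in M1 at P21 to P25, carrying mCherry with either a *Fezf2 shRNA* (4 libraries) or a *non-silencing shRNA* (control, 4 libraries), with M1 collected at P49 to P53. Both constructs were driven by the rat *Synapsin I* promoter, which is active in neurons, and M1 was cut out by its mCherry signal with all layers and meninges, so each library of total RNA holds transduced and untransduced cells of every type. No label assigns animals or libraries to a batch. In such bulk tissue, a change in the number of cells of a type and a change in RNA per cell cannot be told apart.

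The libraries had 54684016 to 58003814 counts on genes. *Fezf2* itself had 688, 767, 735 and 702 normalized counts (counts divided by effective library size, times its mean) in control replicates 1 to 4 and 621, 583, 568 and 592 in *Fezf2 shRNA* replicates 1 to 4. All 4 treated values lay below all 4 controls, and the log2 fold change (LFC) was -0.29 (± 0.0781 standard error, SE, edgeR adjusted p = 0.0824; adjusted p = 0.0256 from DESeq2 with its prior). Of lists of cell type markers, the summed level of 8 neuronal markers was 3607 to 4037 CPM in the controls and 3708 to 3944 CPM with *Fezf2 shRNA*. The 7 oligodendrocyte markers summed to 1119.8 to 2030.1 CPM in the controls and 832 to 1365 CPM with *Fezf2 shRNA* (median LFC -0.55, 0 of 7 past the threshold), and no marker of either list was at 0. What part these cells have in the values of the channel genes was not tested.

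The sense strand of the *Fezf2 shRNA* is shown because a match in a channel transcript would bear on the comparison of that gene.

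Fezf2 shRNA: gggaactacaagaatcaca

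All 19 nt were found in transcripts of *Fezf2*. Among the annotated transcripts of the 10 channel genes, the longest run shared with the sense strand was 11 nt, in *Cacna1a*, and 8 or 9 nt in the other 9 genes. The longest run shared with the antisense strand was 10 nt, in *Cacna1a* and *Cacna1b*, and 7 to 9 nt in the rest. Whether the shRNA acts on any of these transcripts was not tested.

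Promoter sequences, 250 bases before to 50 bases after an annotated start, were found for 7 of the 10 genes in RefSeq (GRCm38.p6). Printed here are those of the channel genes that passed the test described next and that of *Cacna2d2*, an alpha-2-delta gene that did not. *Cacna1c* has 3 annotated windows, and the one printed is the nearest to the start of the counted transcript. It lies on the minus strand at chr6:119108446-119108745, the *Cacna2d1* window on the plus strand at chr5:15934441-15934740 and the *Cacna2d2* window on the plus strand at chr9:107399630-107399929. Capitals mark the GC box GGGCGG on either strand, with overlapping copies run together.

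Cacna1c: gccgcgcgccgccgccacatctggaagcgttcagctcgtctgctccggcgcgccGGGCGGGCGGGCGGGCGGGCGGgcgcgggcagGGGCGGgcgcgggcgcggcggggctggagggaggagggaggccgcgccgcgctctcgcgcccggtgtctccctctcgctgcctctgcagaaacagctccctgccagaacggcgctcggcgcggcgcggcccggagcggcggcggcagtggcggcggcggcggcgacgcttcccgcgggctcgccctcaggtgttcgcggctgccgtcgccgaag
Cacna2d1: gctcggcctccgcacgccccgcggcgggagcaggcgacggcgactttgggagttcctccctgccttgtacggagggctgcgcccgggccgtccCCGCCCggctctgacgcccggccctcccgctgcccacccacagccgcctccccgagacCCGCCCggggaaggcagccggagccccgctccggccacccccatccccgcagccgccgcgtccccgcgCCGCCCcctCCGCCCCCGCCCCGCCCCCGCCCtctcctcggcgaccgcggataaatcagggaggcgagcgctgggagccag
Cacna2d2: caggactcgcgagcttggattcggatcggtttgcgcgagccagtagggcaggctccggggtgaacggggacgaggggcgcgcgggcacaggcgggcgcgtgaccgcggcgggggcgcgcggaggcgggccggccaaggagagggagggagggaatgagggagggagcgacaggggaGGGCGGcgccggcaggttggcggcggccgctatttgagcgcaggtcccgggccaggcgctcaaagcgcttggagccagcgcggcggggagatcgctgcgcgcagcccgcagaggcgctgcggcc

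The *Cacna1c* window held 6 GC boxes and 57 CpG dinucleotides, that of *Cacna2d1* 7 GC boxes and 42 CpG, and that of *Cacna2d2* 1 GC box and 43 CpG. Windows not printed, of genes that did not pass, ranged as widely. *Cacna1d* (window nearest the counted start) held 6 GC boxes and 63 CpG, and *Cacna2d3* 6 and 41. *Cacna1b* held 3 and 35, and *Cacna1e* 0 and 11. Over all 32851 promoter windows of the same length, 35.7% held a GC box and the median number of CpG was 7. The other 2 *Cacna1c* windows held 0 GC boxes, with 7 and 3 CpG. None of the printed windows held TATAAA, which 13.6% of all windows held, nor CCAAT (37.4%), TGACGTCA (1.79%) or CACGTG (7.15%), each searched on both strands. These counts describe letters and not bound sites.

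The level of each gene was first compared per kb of its counted interval, which includes introns. *Cacna1g* was highest, at 55.1 ± 6.20 normalized counts per kb (SD, n = 8 libraries), followed by *Cacna1b* at 50.5 ± 9.50 and *Cacna1e* at 48.97 ± 3.57. *Cacna2d1* (38.7 ± 4.67), *Cacna1a* (37.6 ± 4.90) and *Cacna1h* (27.2 ± 2.39) came next. Below them were *Cacna1d* (20.7 ± 3.30), *Cacna2d3* (19.4 ± 3.88), *Cacna1c* (8.75 ± 1.49) and *Cacna2d2* (6.70 ± 0.638). This order pools the groups. With *Fezf2 shRNA*, *Cacna1b* (57.7) was above *Cacna1g* (55.8), and in the controls *Cacna1e* (46.2) was above *Cacna1b* (43.4). Per kb, N-type, R-type and 1 of the T-type genes had the highest levels in both groups. The L-type genes were in the lower part of the order. The exonic share of the interval ran from 1.07% in *Cacna2d3* to 16.4% in *Cacna1h*, so levels per kb are not directly comparable between genes. Not divided by span, *Cacna1g* had a mean of 3572 normalized counts in the controls, below *Cacna1c* (3810) and *Cacna1d* (5670). Neighbours in the order per kb had overlapping ranges over the 8 libraries, with the exception of *Cacna2d3* and *Cacna1c*. Per kb of interval, the level of *Cacna2d1* was above those of *Cacna2d3* and *Cacna2d2* in every library, since its lowest value was 33.5 and their highest were 24.7 and 7.53. Not divided by span, *Cacna2d1* (14610.5 to 19456 normalized counts) and *Cacna2d3* (11169 to 20183) overlapped.

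**Figure D1:**
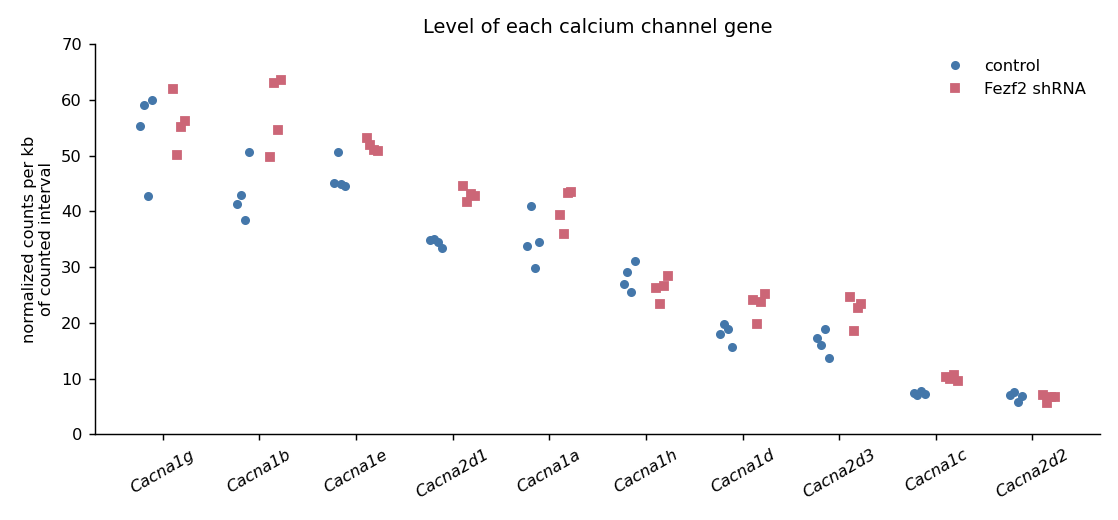
Normalized counts per kb of counted interval (y axis) of the 10 calcium channel genes (x axis, ordered by their mean over 8 libraries), with 1 point per library (circles, control replicates 1 to 4 from left to right; squares, Fezf2 shRNA replicates 1 to 4). The means run from 55.1 for Cacna1g to 6.70 for Cacna2d2, and the ranges of neighbours overlap except between Cacna2d3 and Cacna1c.

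With *Fezf2 shRNA*, 2 of the 10 genes rose, the L-type pore gene *Cacna1c* and the alpha-2-delta gene *Cacna2d1*, and none fell (edgeR's quasi-likelihood test, adjusted p at most 0.05 across the genes tested, with the LFC at least 0.2 in size). Of all 9959 genes tested, 208 (2.09%) passed, 195 (1.96%) of them upwards. At an unadjusted p under 0.05 were 7 of the 10 genes, beside 19.6% of all genes tested. Another 3 genes, *Cacna1b*, *Cacna1d* and *Cacna2d3*, had LFCs between 0.36 and 0.44 that did not pass. The T-type genes and *Cacna2d2* had LFCs between -0.11 and 0.04. The median over the 10 genes was 0.27, beside -0.03 over all genes tested. All 10 genes lay between -0.11 and 0.45 on the log2 scale, and the increase of *Cacna1c* amounted to 1.37-fold.

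*Cacna1c* encodes the main L-type pore of cortical neurons, a dendritic channel that couples depolarization to transcription. Its counted interval, on the minus strand of chromosome 6 from 118592942 to 119108189 (GRCm38), covers 515 kb, of which 2.87% is exonic. It had 3806, 3669.7, 4050.2 and 3714 normalized counts in control replicates 1 to 4 and 5263, 5167, 5475 and 4917 in *Fezf2 shRNA* replicates 1 to 4. The lowest treated library lay above the highest control, and replicates within a group were close. The means were 3810.2 ± 169.9 in the controls and 5205 ± 232 with *Fezf2 shRNA* (SD, n = 4 each), an increase of 36.6% (LFC 0.45 ± 0.0570 SE, edgeR adjusted p = 0.0120). The call was lost without control replicate 1 (adjusted p = 0.0846) or control replicate 4 (adjusted p = 0.0517) at LFCs of 0.45 and 0.44. In those fits 0 of 9871 and 4 of 9825 genes tested passed in the whole series.

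*Cacna2d1*, whose protein is a binding site of gabapentin, lies on the plus strand of chromosome 5 from 15934788 to 16371069, an interval of 436 kb with 2.03% exonic bases. The 4 controls had 15198, 15266, 15058 and 14610.5 normalized counts, and the 4 *Fezf2 shRNA* libraries 19456, 18165, 18810.0 and 18646. The groups did not overlap, and this gene had the smallest relative spread of the 10 within the controls. From 15033 ± 295 to 18769 ± 533 (SD, n = 4 each), the level rose by 24.9% (LFC 0.32 ± 0.0584 SE, edgeR adjusted p = 0.0276). The LFC stayed between 0.30 and 0.34 as each library was left out. The call was lost without control replicate 1 (adjusted p = 0.0998) or 4 (0.0790), and without *Fezf2 shRNA* replicate 1 (0.0834), 3 (0.0738) or 4 (0.0669). Over all genes tested, those fits called 0, 4, 13, 9 and 17 genes in the same order.

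The alpha-2-delta genes *Cacna2d3* and *Cacna2d2* overlapped between the groups. *Cacna2d3* (chromosome 14, minus strand, 28904943 to 29721864, 817 kb) is the longest of the 10 genes. Its control values were 14198, 13033, 15450.5 and 11169 normalized counts, and its *Fezf2 shRNA* values 20183, 15085, 18582 and 19155. *Fezf2 shRNA* replicate 2 lay within the control range, and the other 3 treated libraries lay above it. The LFC was 0.44 (± 0.114 SE, edgeR adjusted p = 0.0759), and it passed when *Fezf2 shRNA* replicate 2 was left out (0.52, adjusted p = 0.0373). *Cacna2d2* (chromosome 9, plus strand, 107399612 to 107529343) had 763 to 977 normalized counts in the controls and 731 to 907 with *Fezf2 shRNA*, with an LFC of -0.07 (± 0.101 SE, edgeR adjusted p = 0.710).

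The second L-type gene, *Cacna1d* (chromosome 14, minus strand, 30040440 to 30352991), whose channels open at more negative potentials than those of *Cacna1c*, had 5649, 6217, 5888 and 4927 normalized counts in the controls. With *Fezf2 shRNA* it had 7511, 6216, 7422 and 7863. The groups touched at a single pair of libraries, control replicate 2 (6217) and *Fezf2 shRNA* replicate 2 (6216). The means were 5670.4 ± 548 and 7253 ± 717 (SD, n = 4 each), and the LFC of 0.36 (± 0.0886 SE) did not pass (edgeR adjusted p = 0.0667). Without control replicate 2 it was 0.40 (adjusted p = 0.0457) and without *Fezf2 shRNA* replicate 2 it was 0.42 (adjusted p = 0.0313), both past the threshold.

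Of the presynaptic pore genes, the N-type gene *Cacna1b* (chromosome 2, minus strand, 24606570 to 24763047) had 6475, 6723, 6010.4 and 7925 normalized counts in the controls and 7786, 9864, 8543 and 9946 with *Fezf2 shRNA*. Control replicate 4 exceeded *Fezf2 shRNA* replicate 1, and the remaining libraries were separated by treatment. The LFC was 0.41 (± 0.102 SE, edgeR adjusted p = 0.0644). The P/Q-type gene *Cacna1a* (chromosome 8, plus strand, 84415364 to 84640246) had 7613, 9203, 6692 and 7740.0 normalized counts in the controls and 8845, 8093, 9721 and 9769 with *Fezf2 shRNA*. Here control replicate 2 lay above 2 of the treated libraries, and the LFC of 0.22 (± 0.0979 SE) did not pass (edgeR adjusted p = 0.244).

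*Cacna1e*, the R-type pore gene (chromosome 1, minus strand, 154392519 to 154725920), had 15002, 16887, 14948 and 14830.3 normalized counts in the controls and 17741, 17273, 16978 and 16949 with *Fezf2 shRNA*. The groups did not overlap, but control replicate 2 was close to the lowest treated library. The difference was small (11.8%, LFC 0.16 ± 0.0656 SE) and did not pass (edgeR adjusted p = 0.215). In total 3 of the 10 genes, *Cacna1c*, *Cacna1e* and *Cacna2d1*, had treated values all above the controls, beside 7.41% of all genes tested that did so in this direction.

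The T-type genes, like *Cacna2d2*, differed little. *Cacna1g* (chromosome 11, minus strand, 94408406 to 94474198) had 2807 to 3949.8 normalized counts in the controls and 3292 to 4077 with *Fezf2 shRNA*, and an LFC of 0.04 (± 0.107 SE, edgeR adjusted p = 0.857). *Cacna1h* (chromosome 17, minus strand, 25374295 to 25433783) had 1515 to 1855 and 1391 to 1689.6, with an LFC of -0.11 (± 0.0825 SE, edgeR adjusted p = 0.479). In both genes the ranges of the groups overlapped.

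**Figure D2:**
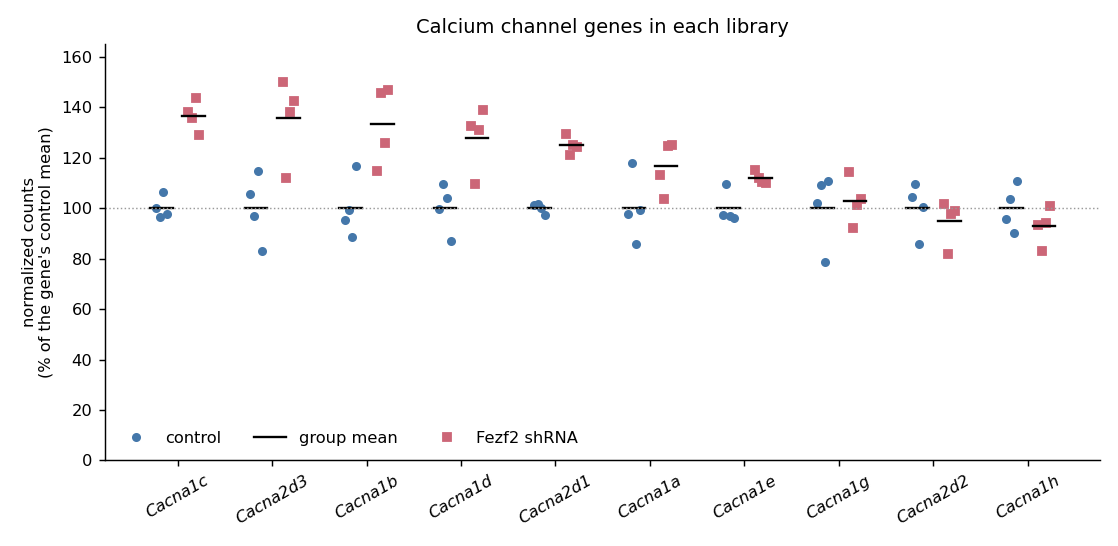
Normalized counts as a percentage of each gene's control mean (y axis, from 0) for the 10 calcium channel genes, ordered by LFC; circles are the 4 control libraries, squares the 4 Fezf2 shRNA libraries (replicates 1 to 4 from left to right in each) and black lines the group means. The squares of Cacna1c, Cacna2d1 and Cacna1e lie above all their circles, and the groups of the other 7 genes overlap.

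DESeq2 with its prior on fold changes, the tool of the study's methods, called 5 of the 10 genes, all upwards: *Cacna1b*, *Cacna1c*, *Cacna1d*, *Cacna2d1* and *Cacna2d3*. It called 734 of the 9959 genes (7.37%). The LFCs of *Cacna1b* (0.36, adjusted p = 0.00232), *Cacna1d* (0.32, adjusted p = 0.00633) and *Cacna2d3* (0.37, adjusted p = 0.00387) in this test were smaller than those from edgeR. Whether these 3 genes are called therefore depends on the tool.

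Fold changes were then set against the span of the genes, because a count in these data covers the whole interval of a transcript, introns included, and longer genes had higher fold changes in the series as a whole. For all genes tested, the median LFC was -0.12 for the 2153 genes under 10 kb, -0.07 from 10 to 30 kb and 0.01 from 30 to 100 kb. It was 0.15 from 100 to 300 kb and 0.29 for the 407 genes over 300 kb. The share of genes that rose was 0.0464% in the shortest class and 22.1% in the longest. The 10 channel genes are long, with a median span of 269 kb beside 28.5 kb for all genes tested.

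Both genes that rose are among the 5 channel genes over 300 kb, together with *Cacna1d*, *Cacna1e* and *Cacna2d3*. Both T-type genes, at 59.5 and 65.8 kb, are the shortest of the 10. Across the 10 genes, LFC and span had a Spearman's rho of 0.79 and, with log10 span, a Pearson's r of 0.80, beside a rho of 0.60 across the 9959 genes tested. The genes share the same 8 libraries and are not independent replicates, so no p is given. *Cacna1b* and *Cacna2d2* show how far genes of like span can differ, with 156 kb and 129.7 kb and LFCs of 0.41 and -0.07.

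When the trend with gene span was removed from each library by an offset, none of the 10 genes passed in edgeR. At an unadjusted p under 0.05 were 3 of them, *Cacna1b*, *Cacna1c* and, with lower values, *Cacna2d2*, beside 1078 of all 9959 genes tested. Of all 9959 genes 1 passed (0.01%). *Cacna1c* then had an LFC of 0.15 (adjusted p = 0.422) and *Cacna2d1* of 0.04 (adjusted p = 0.854). The value with the offset was 0.26 for *Cacna1b* (adjusted p = 0.457), 0.11 for both *Cacna1d* and *Cacna2d3*, 0.02 for *Cacna1a* and -0.01 for *Cacna1g*. It was -0.09 for *Cacna1e*, which turned in direction as *Cacna1g* did, -0.15 for *Cacna1h* and -0.20 for *Cacna2d2*. The median over the 10 genes went from 0.27 to 0.03, and over all genes tested from -0.03 to -0.01. The offset removes any difference that follows gene span, whatever its source, and which source it has was not tested.

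**Figure D3:**
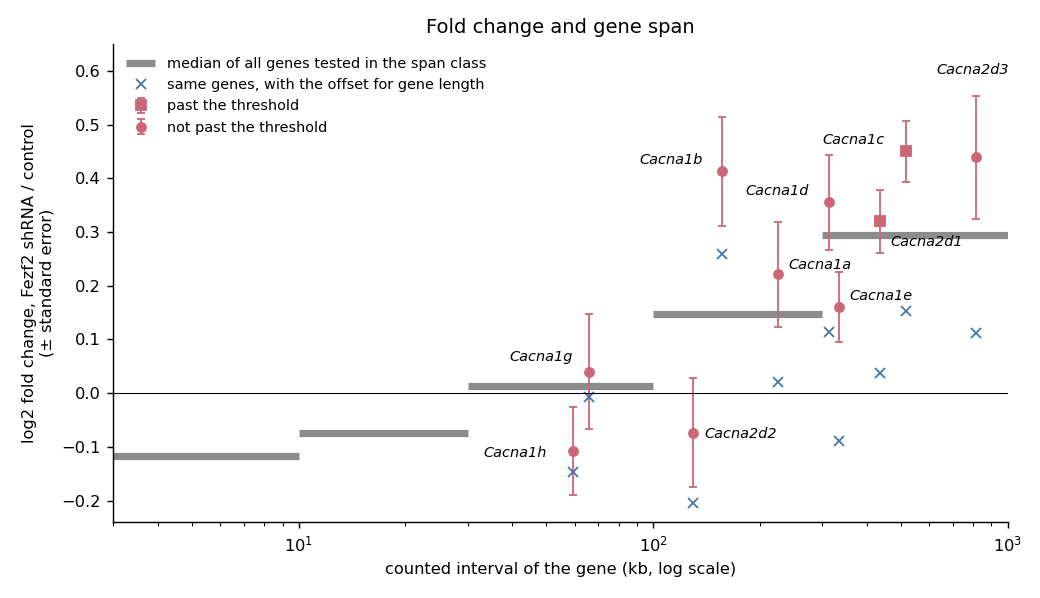
Log2 fold change (LFC), Fezf2 shRNA over control (y axis), against the counted interval in kb (x axis, log scale) for the 10 calcium channel genes; red symbols with bars are the values ± standard error (squares, past the threshold; circles, not), blue crosses the same genes with the offset for gene length, and grey bars the medians of all genes tested in each span class (the shortest class reaches below the axis). The medians climb from -0.12 to 0.29, and with the offset all 10 genes lie between -0.20 and 0.26.

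The transcripts of a gene share reads, and annotated intervals that lie inside one another allowed parts of some channel genes to be counted apart. A part was called exonic when at least 80% of its annotated bases are exonic and intronic when at most 5% are. Among 3469 intronic parts of all genes 518 passed the test (14.9%), 513 of them upwards, whereas among 2355 exonic parts 2 passed (0.0849%). This contrast depended on the scaling: when counts were scaled within the parts of each kind, a choice made after the data were seen, 0 intronic parts passed in edgeR (0%, with 21.4% at an unadjusted p under 0.05) and 7 exonic parts (0.297%, with 6.2% at an unadjusted p under 0.05). An intronic part was found for 7 of the channel genes and an exonic part for 3, with none of either kind for *Cacna1e*, *Cacna1g* and *Cacna2d3*.

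*Cacna2d1* gave the clearest pair of parts. Its longest inner interval, 436 kb with 1.95% exonic bases, had 11491, 11901, 11794 and 10914 normalized counts in the controls and 15542, 14552, 15272 and 15092 with *Fezf2 shRNA* (LFC 0.39 ± 0.0742 SE, edgeR adjusted p = 0.0150). This call was lost without control replicate 1 (adjusted p = 0.0574) or *Fezf2 shRNA* replicate 3 (0.0501). The exonic remainder at the ends of the gene had 3706, 3365, 3264 and 3697 in the controls and 3914, 3613, 3538 and 3554 with *Fezf2 shRNA*. This part overlapped between the groups and did not pass (LFC 0.06 ± 0.0793 SE, edgeR adjusted p = 0.819). The log2 ratio of the inner interval to the exonic remainder was 1.72 in the controls and 2.05 with *Fezf2 shRNA*, a difference of 0.33 (two-sided exact permutation test, p = 0.0286, the smallest that 4 against 4 allows). Such ratios were tested for 3 channel genes, and adjusted over them by Benjamini-Hochberg this permutation p was 0.0857, which does not pass 0.05. The same difference, as the median over 951 genes with both kinds of part, was 0.23, and it too separated all treated from all control libraries.

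These parts have limits. The annotation gives 383 bases for the exonic remainder of *Cacna2d1*, but transcripts of this gene whose annotated ends differ by up to 3460 bases had identical counts, so the ends used for counting may differ from those used here. The inner interval also holds most exons of the gene, and for *Cacna1c* the intronic part has the same reads as the whole gene (LFC of the part without control replicate 1, 0.45, edgeR adjusted p = 0.0574). When counts were scaled within the parts of each kind, 0 of the 10 parts of channel genes tested passed in edgeR (5 at an unadjusted p under 0.05), as was so for the intronic parts of all genes. The LFCs of the inner interval and the exonic remainder of *Cacna2d1* were then 0.21 and 0.14.

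In *Cacna1a* the intronic part, a 130.6-kb retained-intron transcript that starts upstream of the counted interval, had 1711, 2355, 1819.6 and 1968 normalized counts in the controls and 2423, 2551, 2884 and 2791 with *Fezf2 shRNA*. All treated values were above all controls, and it passed (LFC 0.44 ± 0.110 SE, edgeR adjusted p = 0.0272), although the gene as a whole did not. The call was lost without control replicate 1 (adjusted p = 0.0757), 3 (0.0573) or 4 (0.0697), and without *Fezf2 shRNA* replicate 3 (0.0766) or 4 (0.0654). An interval of 33 kb toward the 3′ end of *Cacna1a* had 1622 ± 277 in the controls and 1801 ± 227 with *Fezf2 shRNA* (SD, n = 4 each), and its groups overlapped. This interval holds the whole of *Gm16183*, a gene on the opposite strand with a mean of 407 normalized counts. The difference between the front and the rear of the gene was not tested.

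The intronic parts of *Cacna1b* (18.1 kb, LFC 0.28 ± 0.114 SE, adjusted p = 0.108) and of *Cacna1d* (139 kb, 0.23 ± 0.113 SE, adjusted p = 0.181) did not pass in edgeR. That of *Cacna1d* lies mostly upstream of the counted interval, with a short piece at the downstream end that lies within *Chdh*. The exonic part of *Cacna1b*, 2788 bases at the ends of the gene, had 635 ± 50.6 normalized counts in the controls and 709 ± 76.8 with *Fezf2 shRNA* (LFC 0.16, edgeR adjusted p = 0.619). *Cacna2d2* had 219 ± 41.8 and 177 ± 28.2 in its exonic part (-0.30, adjusted p = 0.560) and 526 ± 37.0 and 496 ± 67.7 in its intronic part (-0.08, adjusted p = 0.641). The intronic part of *Cacna1h* had 291 ± 61.8 and 266 ± 65.6 (-0.13, adjusted p = 0.677). For *Cacna1b* and *Cacna2d2* the log2 ratio of intronic to exonic part differed by 0.14 and 0.20, and the groups overlapped (two-sided exact permutation test, p = 0.343 and p = 0.429, adjusted p = 0.429 for both).

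**Figure D4:**
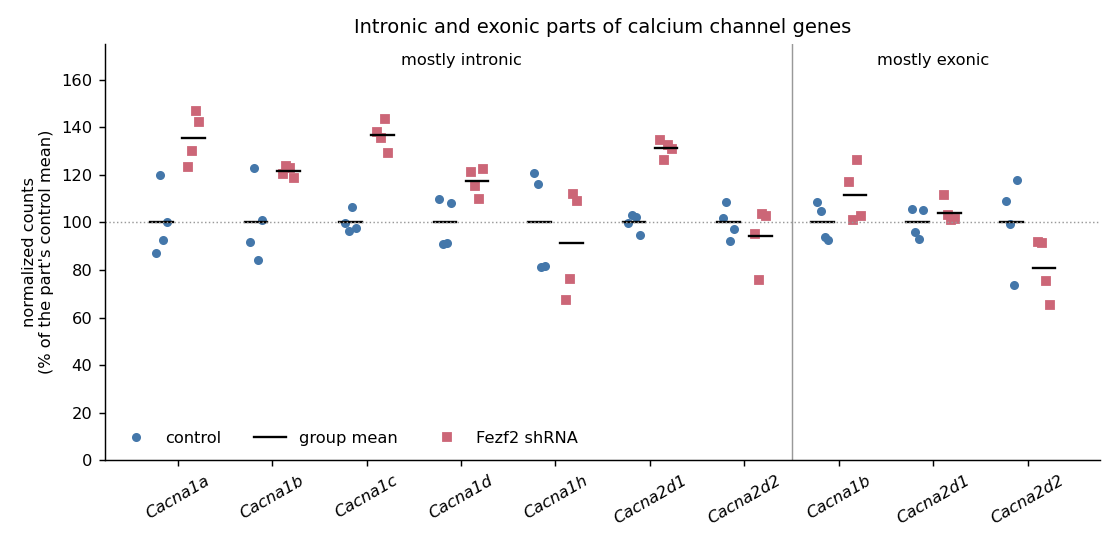
Normalized counts as a percentage of the control mean of each part (y axis, from 0) for the mostly intronic parts of 7 channel genes (left) and the mostly exonic parts of 3 (right); circles are control libraries, squares Fezf2 shRNA libraries and black lines group means. The intronic parts of Cacna1a, Cacna1c, Cacna1d and Cacna2d1 have all squares above all circles, and the exonic parts of the 3 genes overlap. How many intronic parts of all genes show no overlap was not counted, and 518 of 3469 (14.9%) passed the threshold.

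The study's methods name no strand option for counting. If reads of both strands were counted, genes that overlap a channel gene add to its count. Annotated genes on the opposite strand lie within *Cacna1a* (*Gm16183*) and *Cacna2d3* (*Lrtm1* and others). The whole counts of overlapping genes, inside and outside the shared bases, were set against those of the channel genes. In sum they amounted to 4.81% for *Cacna1a*, 3.82% for *Cacna1d*, 3.22% for *Cacna2d2*, 2.88% for *Cacna2d3* and under 1% for the other 6 genes. The reads inside a channel gene can be far fewer: the value for *Cacna1d* is that of *Chdh*, which shares 88 bases with it. In that case the reads of an overlapping gene and of the channel gene at the same place cannot be told apart. These sums leave out overlapping genes for which no count was used here, 3 in *Cacna2d1*, 4 in *Cacna2d3* and 1 each in *Cacna1c* and *Cacna1d*.

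No other gene named as a channel subunit passed in edgeR. Of 16 further genes, chosen by such names and including *Cacng* genes, 11 were tested. In either direction 0 passed (2 at an unadjusted p under 0.05, 2 called by DESeq2 with its prior). *Cacng3*, whose protein is an auxiliary subunit of AMPA receptors, had 3746, 4928, 4389 and 3937 normalized counts in the controls and 6257, 6696, 5384 and 4955 with *Fezf2 shRNA*, without overlap. Its LFC was 0.45 (± 0.109 SE, edgeR adjusted p = 0.0592), and 0.37 with the offset for gene length. *Cacnb4*, a cytoplasmic beta subunit that assists the pore to the membrane, had 15487 ± 1323 in the controls and 18451 ± 888 with *Fezf2 shRNA* (SD, n = 4 each; 0.25 ± 0.0760 SE, edgeR adjusted p = 0.109). DESeq2 with its prior called *Cacng3* and *Cacnb4*.

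The smallest p among genes of this list with lower values belonged to *Cacng7* (-0.16 ± 0.0930 SE, adjusted p = 0.349) and the beta subunit gene *Cacnb1* (-0.05 ± 0.0710 SE, adjusted p = 0.736), in edgeR. The median LFC of the 11 genes was 0.01, and their median span was 62.2 kb. With the offset for gene length their median was 0.09, beside 0.03 for the 10 channel genes. The third T-type gene, *Cacna1i*, was counted over 4.49 kb and had an LFC of -0.02, which reports on that piece of the gene.

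Other routes of calcium into and out of the cytosol were examined with 26 genes for intracellular release channels, pumps, exchangers and store-operated entry. Of the 19 tested, 0 passed in edgeR (3 at an unadjusted p under 0.05, 0 called by DESeq2 with its prior and 1 without it, a setting that called 7.55% of all genes), and the median LFC was 0.09. Their median span was 138 kb, and with the offset for gene length the median was -0.06. The sodium/calcium-potassium exchanger genes *Slc24a4* (0.39 ± 0.133 SE, adjusted p = 0.148) and *Slc24a3* (0.38 ± 0.145 SE, adjusted p = 0.194) had the smallest p of those with higher values. *Orai2*, a store-operated channel subunit (-0.10 ± 0.0721 SE, adjusted p = 0.463), and the sodium/calcium exchanger *Slc8a2* (-0.08 ± 0.0631 SE, adjusted p = 0.477) had the smallest p of those with lower values.

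A further list of 19 genes held proteins that bind these channels or are opened by the calcium they pass. In edgeR 0 of the 12 tested passed (5 at an unadjusted p under 0.05), while DESeq2 with its prior called 4, *Kcnma1*, *Kcnn2*, *Rims1* and *Rims2*. *Kcnma1*, the large-conductance calcium-activated potassium channel, had 21310.3 ± 2130.4 normalized counts in the controls and 27632 ± 1958 with *Fezf2 shRNA* (SD, n = 4 each), without overlap (LFC 0.37 ± 0.0867 SE, edgeR adjusted p = 0.0534). It spans 505 kb, and with the offset for gene length the value was 0.08. *Kcnn2*, a small-conductance calcium-activated potassium channel, had an LFC of 0.33 (± 0.100 SE, adjusted p = 0.114), *Kcnn1* of -0.19 (± 0.0805 SE, adjusted p = 0.229) and the calmodulin gene *Calm3* of -0.13 (± 0.0782 SE, adjusted p = 0.376), in edgeR. The median over the 12 genes was 0.01, at a median span of 36.8 kb, and -0.01 with the offset.

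**Figure D5:**
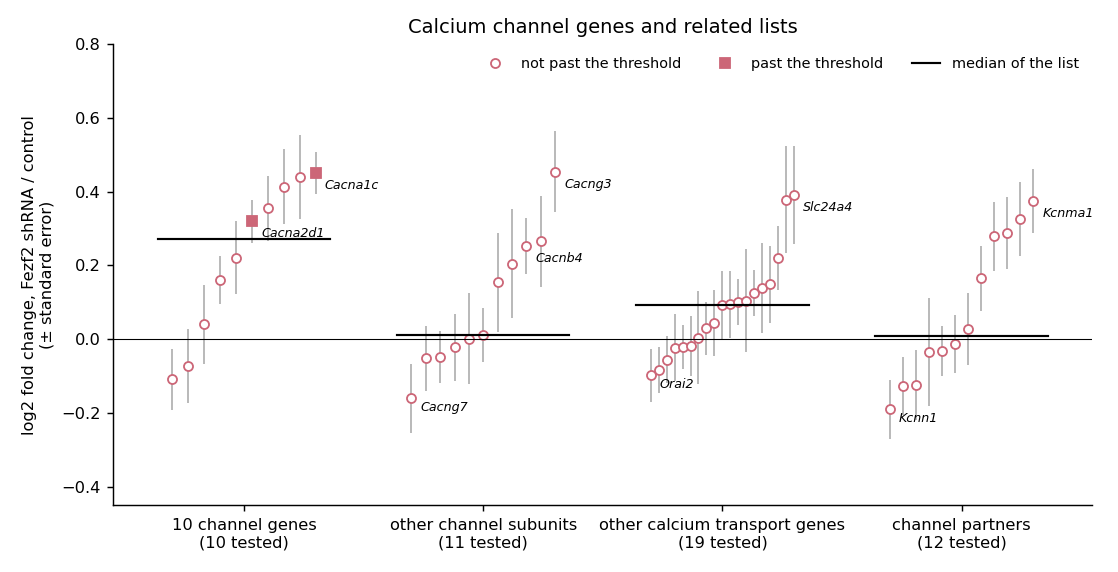
Log2 fold change (LFC), Fezf2 shRNA over control, ± standard error (y axis) of each gene tested, for the 10 calcium channel genes and the 3 further lists (x axis, genes ordered by value within a list); filled squares passed the threshold, open circles did not, and black lines are list medians. The medians are 0.27 for the 10 channel genes and 0.01, 0.09 and 0.01 for the other channel subunits, other calcium transport genes and channel partners, and the filled squares are Cacna1c and Cacna2d1. The lists differ in median span (269, 62.2, 138 and 36.8 kb in this order). With the offset for gene length, not drawn here, their medians were 0.03, 0.09, -0.06 and -0.01.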

How the data were processed

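Total RNA of M1 from 8 mice was sequenced as paired-end libraries, and groups and replicate numbers were taken from the deposited titles. The authors trimmed reads with fastq-mcf, aligned them to mm10 (GRCm38) with TopHat2 2.1.1, counted them over Ensembl transcript intervals with BEDTools multiCov 2.26.0 and deposited these counts without normalization. A second deposited table holds the authors' own comparison from DESeq2 and was not used.

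Of 94647 transcripts, 91320 were matched to GENCODE M21, and the others held 1.82% of counts. Counts were tested with edgeR 4.0.16 (TMM, quasi-likelihood test, Benjamini-Hochberg over all genes tested, no covariate) in R 4.3.3, with DESeq2 1.42.0 as an alternative. Parts of genes with a mean under 100 reads were left out, the others were scaled by the factors of the fit over genes, and 1 was added to counts before ratios of parts. The offset for gene length was fitted per library as a loess curve (span 0.3) on log gene span of each gene's log ratio to its mean. Permutation tests were exact and two-sided. Figures were drawn with matplotlib 3.10.9. The edgeR fit over genes, with and without the offset, was tried on simulated counts that held no trend with gene span.

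All 10 channel genes are named, and of the 3 other lists those past the threshold and the 2 with the smallest p in each direction. *Rims1*, *Rims2*, *Cacna1i*, *Gm16183*, *Lrtm1* and *Chdh* were added after their values were seen. The members and lists were chosen with earlier results of these data known. Each library was taken as 1 animal. At this depth the spread between libraries, with a common biological coefficient of variation of 11.7%, limits the precision more than counting error. Other normalizations, filters, tests, the replicate number as a block, the widest transcript, stricter parts and leaving out each library were tried.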

Additional observations from a re-analysis of the deposited data

Results flagged for a closer look

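*Cacna1e* had 16887 normalized counts in control replicate 2, while the other 3 controls lay between 14830.3 and 15002. The gap of this library to the nearest other control took up most of the range of the group, 0.917 of it, which is above the limit for a value that stands apart among 4. In all, 42 groups of 4 libraries were examined and 1 stood out in this way, where chance flags about 1 in 20. Without control replicate 2 the log2 fold change of *Cacna1e* was 0.21, above the minimum of 0.2, and the gene did not pass (edgeR adjusted p = 0.0835).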

How the results depend on the processing

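Of the 10 channel genes, 2 passed, and this count was unchanged under median of ratios size factors, library totals, TMM that leaves out the 10 most counted genes, a filter at 1 CPM, no minimum fold change and the widest transcript. It was 1 (*Cacna1c*) with no filter, 5 under DESeq2 with and without its prior, and 0 with the offset for gene length, alone or with the replicate block. Leaving out each library gave 0 to 4: 0 without control replicate 1 or 4, 1 (*Cacna1c*) without *Fezf2 shRNA* replicate 1, 3 or 4, and 4 without *Fezf2 shRNA* replicate 2. Over all genes tested the same fits gave 0 to 368 calls beside 208. Without control replicates 1 to 4 they gave 0 (0%), 368 (3.72%), 130 (1.32%) and 4 (0.0407%). Without *Fezf2 shRNA* replicates 1 to 4 they gave 13 (0.132%), 269 (2.72%), 9 (0.0912%) and 17 (0.172%). The cause was not tested.

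With the offset for gene length, *Cacna1e* turned from 0.16 to -0.088 (-0.088 with the block as well) and *Cacna1g* from 0.04 to -0.0071. *Cacna1g* ranged from -0.050 to 0.095 with each library left out, below 0 when control replicate 3 or *Fezf2 shRNA* replicate 1 (-0.013) was dropped. The other 8 channel genes kept their direction under all 20 alternatives.

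Of the other lists, 0 other channel subunits passed, but 2 did under DESeq2 with or without its prior and 0 to 3 when each library was left out (3 without control replicate 2). For other calcium transport genes the count was 1 under DESeq2 without its prior (*Slc24a4*) and otherwise 0. It was 4 for channel partners under DESeq2 with or without its prior, and 0 to 1 when each library was left out. Of the parts of channel genes, 3 passed; this count was 0 with TMM within the parts of each kind, and 0 to 4 when each library was left out (0 without control replicate 1, 1 without *Fezf2 shRNA* replicate 3). Of the ratios of intronic to exonic parts, 1 of 3 differed at an unadjusted p = 0.0286, and 0 to 0 did with each library left out, where the exact test cannot go below 0.0571; the *Cacna2d1* difference then ranged from 0.28 to 0.38.

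Whether the replicate numbers pair the libraries was not tested. Same-numbered libraries had correlations of deviations of -0.13 to 0.31, and 2 of the 4 *Fezf2 shRNA* replicates correlated best with their own number. With the replicate block, 90 genes passed in place of 208, and 2 of the channel genes, *Cacna1b* (adjusted p = 0.0455) and *Cacna1c* (adjusted p = 0.0290), while *Cacna2d1* did not (adjusted p = 0.0630).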
